A study of Mus musculus with 18 samples.

Results

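The expression of 9 genes used as markers of cellular senescence, or of the proteases that senescent cells secrete, was followed across 18 mouse lung tumours. The genes were chosen by name, as every probe set that the platform annotation gives to a single one of the symbols Serpinb2, Plau, Plaur, Mmp3, Mmp13, Glb1, Lmnb1, Bhlhe40 and Icam1. This gave 11 probe sets of 9 genes, out of 22690 probe sets and 12393 genes on the array; Plau and Lmnb1 each had 2 probe sets. By role, 3 of the genes encode secreted proteases (Plau, Mmp3, Mmp13), 1 the receptor of such a protease (Plaur), 1 a protease inhibitor (Serpinb2) and 4 other markers.

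The study asked how lung tumours of different grade respond when p53 is restored. The 4 groups were 6 tamoxifen-treated grade 3 tumours, 4 tamoxifen-treated grade 2 tumours, 4 untreated grade 3 tumours and 4 untreated grade 2 tumours, all microdissected from C57/B6-129SvJae mice aged 10 weeks. Treated mice had 2 injections of tamoxifen, and their tumours were taken 7 days after the first. The sources used here do not give the alleles of the mice or the driver of the tamoxifen response, and do not say whether untreated mice had vehicle. A single female, mouse 8688, carried 9 of the 10 treated tumours, including every one of grade 3. The tenth, 8639T4 of grade 2, was from a male, as were all 8 untreated tumours (mice 8565, 8584, 8629 and 8700). Treatment effects thus cannot be told apart from those of mouse or sex, and p-values over tumours that share a mouse are too small.

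Senescence is a lasting arrest of the cell cycle that p53 can impose. Senescent cells are known for raised lysosomal beta-galactosidase activity, which Glb1 encodes, for loss of lamin B1 from the nuclear lamina, and for secretion of cytokines and proteases. Among the secreted proteases, urokinase (Plau) bound to its receptor (Plaur) turns plasminogen into plasmin, Serpinb2 inhibits urokinase, and the metalloproteinases stromelysin-1 (Mmp3) and collagenase-3 (Mmp13) cut extracellular matrix.

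RefSeq promoter windows (GRCm38.p6, 250 bases before to 50 after the start) were at hand for 6 of the 9 genes. Serpinb2 had 2 windows and the other genes 1 each. AP-1 is known to act at protease promoters, and 5 of the 6 genes had its letters, TGANTCA on either strand. Of 32851 promoter windows, 7.81% held them. The first base of the match lay 94 bases before the start in Serpinb2 (181 in its second window), 69 in Plaur, 46 in Mmp3, 35 in Mmp13 and 53 in Glb1. The 100 bases before each start, for Serpinb2 that of the first window, are shown because these genes share this element. Capitals mark the AP-1 letters.
Serpinb2 (chr1:107511323-107511422, + strand): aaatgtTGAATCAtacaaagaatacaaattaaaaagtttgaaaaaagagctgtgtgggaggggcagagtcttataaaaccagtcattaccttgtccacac
Plaur (chr7:24462383-24462482, + strand): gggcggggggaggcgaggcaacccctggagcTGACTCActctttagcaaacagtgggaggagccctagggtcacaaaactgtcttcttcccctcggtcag
Mmp3 (chr9:7445722-7445821, + strand): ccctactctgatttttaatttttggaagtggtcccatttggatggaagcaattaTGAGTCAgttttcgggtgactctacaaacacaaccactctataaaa
Mmp13 (chr9:7272414-7272513, + strand): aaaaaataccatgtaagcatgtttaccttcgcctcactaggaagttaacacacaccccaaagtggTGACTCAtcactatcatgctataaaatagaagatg
Glb1 (chr9:114400978-114401077, + strand): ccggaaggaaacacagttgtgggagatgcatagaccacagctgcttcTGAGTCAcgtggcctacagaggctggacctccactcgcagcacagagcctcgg
The Icam1 window had no AP-1 letters and 2 matches to GGNNNTTCC, an NF-kB pattern searched on both strands that 18.5% of windows hold. The one nearer the start matches on the reverse strand. Plaur also had 1 match to this pattern, 18 bases after its start. The 160 bases before the Icam1 start are shown with both matches in capitals.
Icam1 (chr9:21015780-21015939, + strand): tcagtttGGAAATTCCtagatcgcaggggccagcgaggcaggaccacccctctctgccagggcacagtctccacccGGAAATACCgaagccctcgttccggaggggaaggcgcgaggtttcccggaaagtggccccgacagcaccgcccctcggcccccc
The third pattern, the E-box CACGTG, was held by 7.15% of windows and, of the 6 genes, by Glb1, where its first bases overlap the end of the AP-1 letters. These matches are letters in a window; binding was not measured.

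Signals are given as GCRMA log2 values, on which a difference of 1 is a doubling; the array medians lay between 6.05 and 6.18. A gene was tested if its signal exceeded the median of the array on 4 or more of the 18 arrays, which left 7300 genes. Of the marker genes, 7 of 8 for tumour and alveolar epithelium, 8 of 8 for macrophages, 6 of 6 for endothelium and 5 of 6 for fibroblasts passed this filter. Fewer passed for other immune cells, with 2 of the 3 neutrophil markers, 2 of the 6 T and NK cell markers and 1 of the 2 B cell markers on the array. The excess of 3′ over 5′ signal was averaged over the 2 of 5 control transcripts whose 5′ signal exceeded the array median on every array. In 2 tumours, 8688T3 and 8639T4, it was 2.62 and 1.85 on the log2 scale, against at most 1.05 in the other 16. The other 3 control transcripts had their highest 3′ excess in other tumours, at -0.54 in 8700T1, 4.70 in 8688T1 and 3.12 in 8629T12. In such bulk tissue, fewer cells of a type and less RNA per cell cannot be told apart.

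The 6 members that passed the filter were Plaur, Mmp3, Glb1, Lmnb1, Bhlhe40 and Icam1. None of these 6 was called higher or lower with treatment or with grade. In limma's moderated test with the mouse as a random block and Benjamini-Hochberg adjustment over the 7300 genes, 0 of 6 members were called between treated and untreated grade 3 tumours, where 0.466% of all genes were. The count was also 0 of 6 between treated and untreated grade 2 tumours (0.0685% of all genes), between the grades in untreated tumours (0.178%) and between the grades in treated tumours (0%). The treatment differences of the grades also differed for 0 of 6 members (0% of all genes). At an unadjusted p under 0.05, 1 member, Plaur between the grades in untreated tumours, passed in these 5 comparisons, while 12.5% of all genes did so in that one. With so small a share of genes called in any comparison, a count of 0 among 6 does not set the members apart.

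The groups of tumours overlapped for 6 of 6 tested members between treated and untreated grade 3 tumours, where 4.92% of all genes did not overlap. They overlapped for 6 of 6 in the grade 2 comparison (8.08% of all genes without overlap) and between the grades in treated tumours (0.781%). Between the grades in untreated tumours they did not overlap for 1 of 6, Plaur (6.45% of all genes). In each treatment comparison the 95% interval of 5 of the 6 tested members lay within a 2-fold change in either direction, a limit chosen after the values were seen, and that of Mmp3 did not. Such intervals are too narrow where tumours share a mouse, and all treated grade 3 tumours were of mouse 8688. They are also those of the main fit alone, and sex as a covariate moved the Bhlhe40 value, as given below. The plot of fitted differences shows these intervals.

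**Figure D1:**
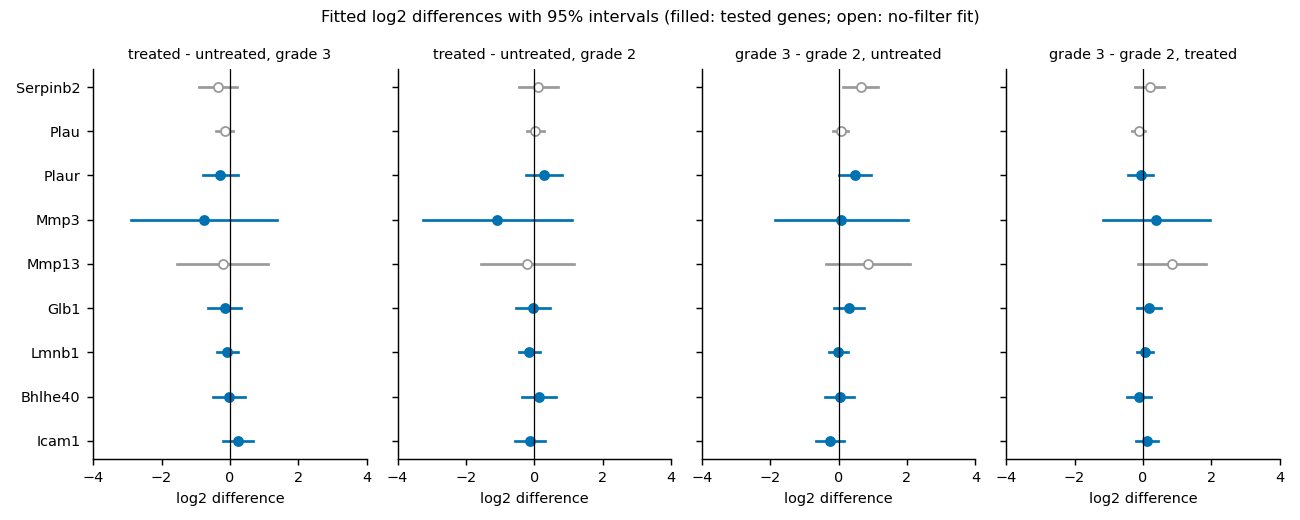
Fitted log2 differences (x axis) of the 9 genes (y axis) in 4 comparisons; points are estimates, lines 95% intervals, filled symbols the 6 tested genes and open symbols the 3 genes below the filter, from a fit to all genes. Every interval crosses 0 except those of Serpinb2 and Plaur between the grades in untreated tumours, and the intervals of Mmp3 are the widest of the 9 in each panel.

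In the plasminogen system, Plaur, the urokinase receptor, stood above the array median in all 18 tumours. Its signal ran from 7.26 to 8.37, with a median of 8.03, in the treated grade 3 tumours, and was 8.54, 8.08, 8.14 and 8.53 in the untreated grade 3 tumours. It was 8.19, 7.93, 8.36 and 7.84 in the treated grade 2 tumours and 8.05, 7.63, 7.67 and 7.88 in the untreated grade 2 tumours. The lowest untreated grade 3 tumour thus lay just above the highest untreated grade 2 tumour. The treated tumours overlapped both untreated groups, but 8584T3 and 8629T12 of untreated grade 3 lay above all of them. Without treatment, the mean was 8.32 ± 0.25 (SD, n = 4) in grade 3 and 7.81 ± 0.20 (SD, n = 4) in grade 2. The fitted difference was 0.48 (SE 0.22, 95% interval 0.02 to 0.95), which did not pass adjustment in limma (adjusted p = 0.377). With the mouse as a fixed block, which rests on the 3 untreated tumours of mouse 8565, the difference was 0.31.

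Treatment differences of Plaur had opposite signs in the grades and neither passed. The fitted value was -0.29 (SE 0.24, limma adjusted p = 0.747) in grade 3 and 0.27 (SE 0.25, limma adjusted p = 0.853) in grade 2. The difference between them, -0.56 (SE 0.28), had an adjusted p of 0.553 in limma. With sex as a covariate the grade 3 value was 0.02, so its sign was not kept. Over the 18 tumours, the tested genes most like Plaur were Cdcp1 (Pearson r = 0.79, Spearman rho = 0.81) and S100a16 (r = 0.78, rho = 0.79), out of 7299; these correlations describe tumours that share mice and arrays.

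Plau, the urokinase gene, was low in every tumour by both of its probe sets. The brighter probe set ran from 2.19 to 2.59 and the dimmer from 2.02 to 2.51, below the array median on 18 of 18 arrays. Both lay below the lower quartile of their arrays, which was 3.31 or more. In the fit to all genes the brighter probe set differed by -0.15 (SE 0.12, limma adjusted p = 0.714) with treatment in grade 3 and by 0.03 (SE 0.12, limma adjusted p = 0.987) in grade 2. The other probe set gave 0.19 in grade 3 and -0.07 in grade 2, of opposite sign, so the small differences of Plau have no settled direction. At this level a change in urokinase RNA may not have been detectable.

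Serpinb2, the urokinase inhibitor also called PAI-2, was likewise below the array median in all 18 tumours. Its signal was 2.83, 1.97, 3.17 and 2.06 in the untreated grade 3 tumours and 1.93, 1.81, 1.80 and 1.64 in the untreated grade 2 tumours. These groups did not overlap, with 8584T3 and 8629T10 at the top. The share of all tested genes without overlap there was 6.45%, counted without genes below the filter such as Serpinb2. All 18 values, from 1.60 to 3.17, lay below the lower quartile of their arrays, which was 3.31 or more. The treated tumours ran from 1.79 to 2.40 in grade 3, with a median of 2.23, and were 2.03, 2.11, 2.08 and 1.60 in grade 2. In the fit to all 12393 genes, which included it, the untreated grades differed by 0.64 (SE 0.24, 95% interval 0.13 to 1.16, limma adjusted p = 0.268). Within mouse 8565 alone, from the fixed block, it was 0.25. Treatment differences were -0.34 (SE 0.27, limma adjusted p = 0.715) in grade 3 and 0.11 (SE 0.27, limma adjusted p = 0.97) in grade 2.

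**Figure D2:**
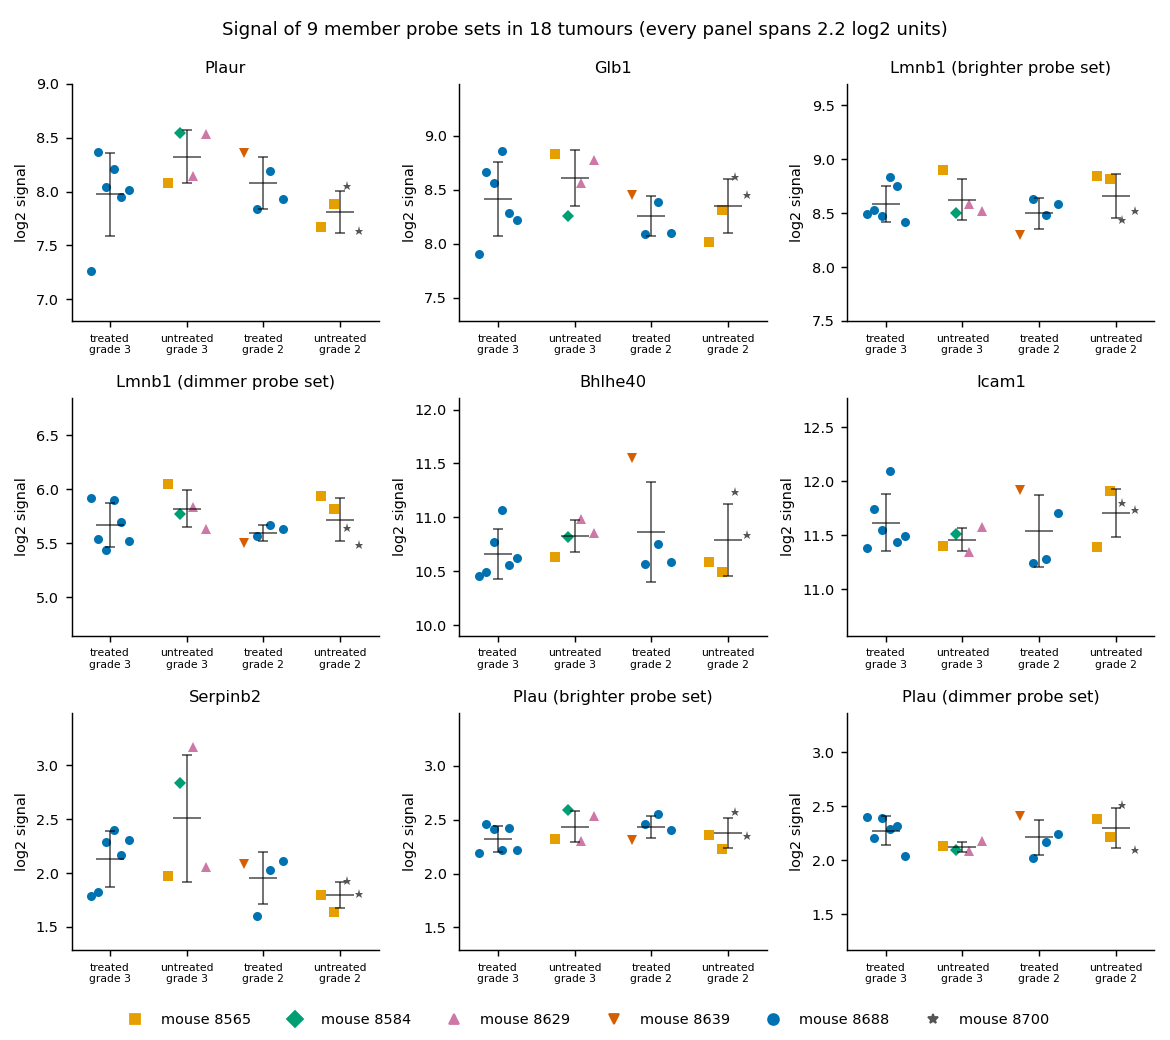
Log2 signal (y axis, every panel spanning the same width) of 9 probe sets in the 4 groups (x axis); each point is a tumour, its colour and shape give the mouse, and bars are the group mean with 1 SD. Plaur, Glb1, Lmnb1, Bhlhe40 and Icam1 overlap between treated and untreated tumours in both grades, and Plau and Serpinb2 lie between 1.60 and 3.17.

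No other gene of the plasminogen system was called. Of 7 on the array, 4 were tested and 0 were called in any comparison. The median treatment difference was -0.07 in grade 3 (0.04 over all genes) and -0.07 in grade 2 (0.02 over all genes). Plat, the tissue-type plasminogen activator, differed by -0.38 (SE 0.28) in grade 3, Lrp1, a clearance receptor, by 0.28 (SE 0.20), and the plasminogen-binding pair Anxa2 and S100a10 by -0.02 and -0.13.

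Mmp3 varied more between tumours than nearly any other tested gene, and did so within groups and within a mouse. Its SD over the 18 tumours was 1.32 against a median of 0.24, and 0.712% of the 7300 tested genes had a larger one. In treated grade 3 tumours it ran from 4.51 in 8688T1 to 8.93 in 8688T2, with a median of 5.28. Both ends of the range over all tumours, a 21.5-fold difference, thus came from treated grade 3 tumours of mouse 8688. The signal was 6.11, 7.68, 5.43 and 8.01 in untreated grade 3 tumours, 4.89, 6.33, 5.59 and 5.34 in treated grade 2 tumours, and 4.86, 6.32, 7.61 and 7.98 in untreated grade 2 tumours. All 3 tumours of mouse 8565, of either grade, were high, at 7.68, 7.61 and 7.98.

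Fitted treatment differences of Mmp3 were negative in both grades and smaller than the spread allowed to pass. They were -0.77 (SE 1.02, 95% interval -2.91 to 1.37, limma adjusted p = 0.843) in grade 3 and -1.08 (SE 1.04, 95% interval -3.27 to 1.11, limma adjusted p = 0.857) in grade 2. Without 8688T2 the grade 3 value was -1.38, and without mouse 8565 the grade 2 value was -0.04. The grades differed by 0.08 (SE 0.92) in untreated and 0.39 (SE 0.75) in treated tumours. The tested genes most like Mmp3 over the 18 tumours were Sfrp1, a secreted Wnt antagonist (r = 0.82, rho = 0.74), and Medag (r = 0.78, rho = 0.86).

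Mmp13 lay below the array median in 17 tumours and above it in 8688T2, the tumour with the highest Mmp3. Its signal ran from 3.75 to 6.33, with a median of 4.78, in treated grade 3 tumours and was 3.08, 5.03, 5.75 and 5.99 in untreated grade 3 tumours. In grade 2 it was 4.16, 4.64, 3.08 and 3.79 in treated and 4.26, 4.08, 3.78 and 4.07 in untreated tumours. Grade 3 means were higher than grade 2 means under both treatments, with overlap between the groups in each. The fit to all genes gave 0.86 (SE 0.58, limma adjusted p = 0.546) in untreated and 0.84 (SE 0.48, limma adjusted p = 0.999) in treated tumours. Treatment differences were -0.21 (SE 0.63) in grade 3 and -0.20 (SE 0.65) in grade 2, with no settled sign. The grade 3 value was -0.83 without 8584T3, 0.56 without mouse 8629 and 0.19 with 1 mean per mouse and group, and the grade 2 value was 0.17 without the 2 tumours with a 3′ excess. Across the 18 tumours Mmp3 and Mmp13 had a Pearson r of 0.42 and a Spearman rho of 0.31, given as a description.

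**Figure D3:**
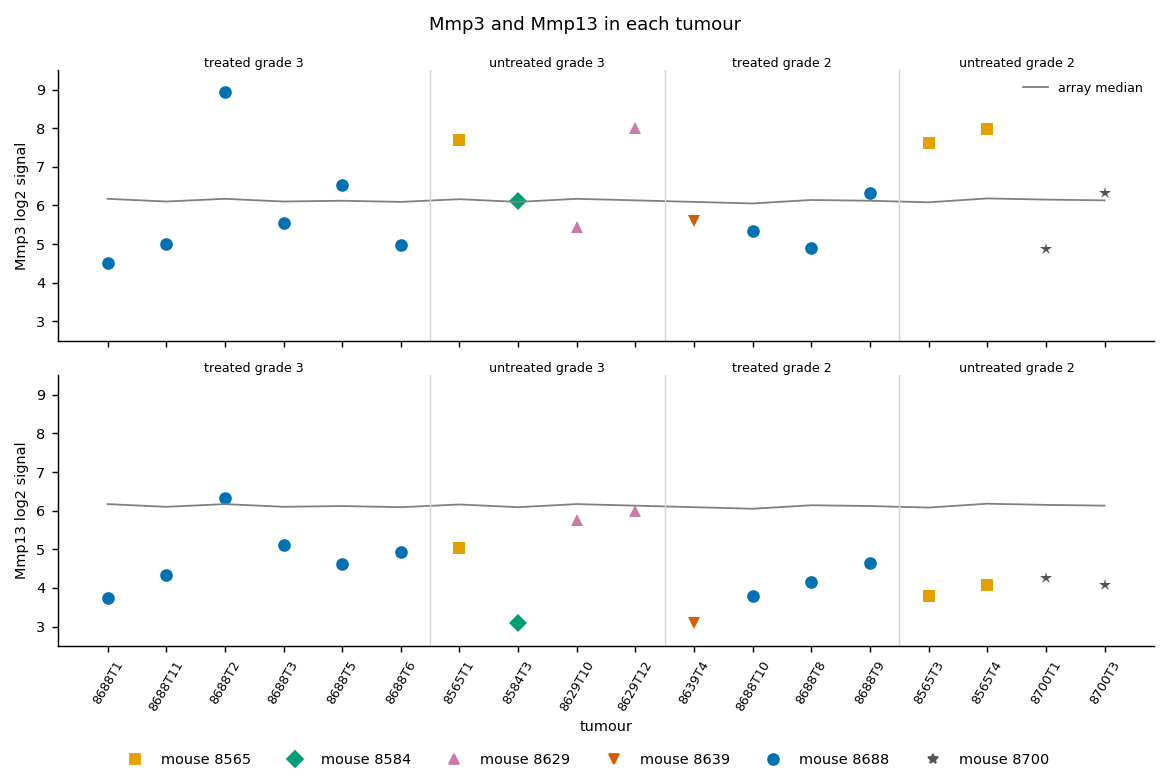
Log2 signal (y axis) of Mmp3 (top) and Mmp13 (bottom) in each of 18 tumours (x axis), ordered by group and mouse, with the array median as a grey line. Mmp3 spans 4.51 to 8.93 within the treated grade 3 tumours of mouse 8688, and Mmp13 passes the array median in 8688T2.

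None of the other metalloproteinases or their TIMP inhibitors was called with treatment. Of 14 on the array 9 were tested; in grade 3, 5 of the 9 differences were below 0 and 4 above, and the median treatment difference was -0.83 in grade 3 (0.04 over all genes) and -0.29 in grade 2 (0.02 over all genes). Mmp14, the membrane-type metalloproteinase that activates Mmp2, differed by -0.83 (SE 0.21, limma adjusted p = 0.109) in grade 3. Mmp23 differed by -1.14 in grade 3 and -1.12 in grade 2, Mmp19 by -1.01 in grade 3, and Timp2 by 0.04 in grade 3 and -0.47 in grade 2. Timp1 (-1.17) and Mmp12 (-0.92) were the others below 0 in grade 3. The differences above 0 in grade 3 were those of Mmp11 (0.66), Mmp2 (0.34), Timp3 (0.21) and Timp2. Of 6 fibroblast markers 5 were tested, and in grade 2 4 of them were below 0 without passing: Col1a1 at -0.54, Col1a2 at -0.52, Col3a1 at -0.56 and Dcn at -1.12, with Pdgfra at 0.17. The mean signal of the 6 ran from 9.06 to 9.37 in treated and 9.56 to 10.12 in untreated grade 2 tumours, and from 9.29 to 9.66 and 9.22 to 9.82 in grade 3; their part in the values of the matrix genes was not tested. Of the other secreted factors of senescence, 24 were on the array, 14 were tested and 0 were called, with medians of -0.56 in grade 3 and -0.27 in grade 2. The lowest p was that of Angptl4, a secreted regulator of lipoprotein lipase, at -1.33 (SE 0.30, limma adjusted p = 0.0581) in grade 3. The cytokine Il1b and the chemokine Cxcl2 differed by -1.86 (SE 0.60) and -1.89 (SE 0.82) in grade 3, and the cytokine Il15 by -0.61 (SE 0.23) in grade 2.

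Glb1, lysosomal beta-galactosidase, was not called in any comparison. Its signal ran from 7.91 to 8.86, with a median of 8.42, in treated grade 3 tumours and was 8.26, 8.83, 8.56 and 8.78 in untreated grade 3 tumours. It was 8.39, 8.10, 8.45 and 8.09 in treated and 8.62, 8.45, 8.02 and 8.31 in untreated grade 2 tumours. The groups overlapped in both grades. Treatment differences were -0.16 (SE 0.23, 95% interval -0.65 to 0.32, limma adjusted p = 0.855) in grade 3 and -0.03 (SE 0.24, 95% interval -0.53 to 0.46, limma adjusted p = 0.986) in grade 2. RNA level is not enzyme activity, which was not measured.

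The gene most like Glb1 was Itgax, the CD11c integrin of alveolar macrophages and dendritic cells (r = 0.87, rho = 0.87), followed by Ralgds (r = 0.82, rho = 0.90). The mean signal of 8 macrophage markers, Itgax among them, ran from 10.39 to 10.88 in treated grade 3, 10.37 to 10.50 in untreated grade 3, 10.45 to 10.61 in treated grade 2 and 10.33 to 10.81 in untreated grade 2 tumours. Within the treated grade 3 tumours 8688T1 was lowest and 8688T3 highest for both Glb1 and this mean, and 8688T3 had the 3′ excess. The same tumours were lowest and highest there for Bhlhe40, Icam1 and the mean of the neutrophil markers. These ends were thus not particular to Glb1 and the macrophage markers. In untreated grade 2 tumours 8565T4 had the highest macrophage mean and 8700T1 the highest Glb1, while the lowest was 8565T3 for both. The part of macrophages and of the 3′ excess in the Glb1 values was not tested. Among other lysosomal genes 16 were on the array, 15 were tested and 0 were called, with medians of 0.04 in grade 3 and -0.12 in grade 2. The sialidase Neu1 differed by -0.41 and the protease Ctsd by 0.34 in grade 3, and the activator protein gene Gm2a by -0.41 and the galactosidase Gla by 0.44 in grade 2.

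Lmnb1 was the steadiest of the tested members. Its brighter probe set had an SD of 0.17 over the 18 tumours, and 82.4% of tested genes had a larger one. It ran from 8.42 to 8.83, with a median of 8.51, in treated grade 3 tumours and was 8.50, 8.90, 8.58 and 8.52 in untreated grade 3 tumours. It was 8.48, 8.58, 8.30 and 8.63 in treated and 8.44, 8.52, 8.84 and 8.82 in untreated grade 2 tumours. Groups overlapped throughout, and all 3 tumours of mouse 8565 lay at 8.82 or more. The treatment difference was -0.08 (SE 0.15, 95% interval -0.39 to 0.23, limma adjusted p = 0.885) in grade 3 and -0.15 (SE 0.15, 95% interval -0.46 to 0.17, limma adjusted p = 0.87) in grade 2. The dimmer probe set, below the array median in all 18 tumours, gave -0.17 and -0.12.

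The genes most like Lmnb1 were Vcam1, an adhesion molecule (r = 0.76, rho = 0.74), and Ms4a6c (r = 0.74, rho = 0.69). Of 11 lamina and chromatin genes on the array, 10 were tested and 0 were called, with medians of -0.16 in grade 3 and -0.01 in grade 2. The chromatin protein gene Hmgb2 differed by -0.39 (SE 0.18) in grade 3 and -0.75 (SE 0.19, limma adjusted p = 0.24) in grade 2. The methyltransferase Ezh2 differed by -0.52 (SE 0.20) in grade 3, and the heterochromatin protein gene Cbx5 by -0.60 (SE 0.20) and the lamina-associated Tmpo by -0.27 (SE 0.16) in grade 2.

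Bhlhe40, also known as Dec1, encodes a transcription factor of the circadian clock that is used as a senescence marker. Its signal ran from 10.46 to 11.07, with a median of 10.59, in treated grade 3 tumours and was 10.82, 10.63, 10.99 and 10.86 in untreated grade 3 tumours. In grade 2 it was 10.75, 10.59, 11.55 and 10.57 in treated and 11.24, 10.84, 10.59 and 10.49 in untreated tumours. The groups overlapped, and the highest signal was that of 8639T4, which had a 3′ excess. Treatment differences were -0.02 (SE 0.23, limma adjusted p = 0.984) in grade 3 and 0.14 (SE 0.23, limma adjusted p = 0.912) in grade 2. Without 8688T3 and 8639T4 they were -0.26 and -0.17, and with sex as a covariate 0.74 and 0.75, so their sign depended on these choices, and no adjusted p passed. The genes most like Bhlhe40 were the keratin Krt8 (r = 0.83, rho = 0.77) and Nkiras2 (r = 0.80, rho = 0.79).

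Other clock transcription factors showed no called gene among 12 tested of 15 on the array, with medians of 0.13 in grade 3 and 0.14 in grade 2. The period gene Per2 differed by 0.87 (SE 0.38) in grade 3 and 1.07 (SE 0.39) in grade 2, the cryptochrome Cry1 by 0.97 (SE 0.35) in grade 2, and Tef, a clock-controlled factor, by 0.99 (SE 0.39) in grade 3. The repressor Nr1d1 differed by -0.69 (SE 0.29) in grade 2. The sources used here do not give the hour of collection.

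Icam1, an endothelial and epithelial ligand for leukocyte integrins, was above the array median in all 18 tumours. It ran from 11.38 to 12.10, with a median of 11.52, in treated grade 3 tumours and was 11.51, 11.40, 11.34 and 11.58 in untreated grade 3 tumours. In grade 2 it was 11.28, 11.71, 11.92 and 11.24 in treated and 11.80, 11.73, 11.39 and 11.91 in untreated tumours. The groups overlapped, with 8688T3 at the top of all tumours. Treatment differences were 0.24 (SE 0.21, 95% interval -0.20 to 0.68, limma adjusted p = 0.759) in grade 3 and -0.13 (SE 0.21, 95% interval -0.58 to 0.32, limma adjusted p = 0.912) in grade 2. Without the 2 tumours with a 3′ excess the grade 3 difference was 0.05.

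The genes most like Icam1 were Ikbkb, a kinase of the NF-kB pathway (r = 0.89, rho = 0.82), and Cyb5r4 (r = 0.88, rho = 0.83). Of 16 genes of the NF-kB response and leukocyte adhesion on the array 12 were tested and 0 were called, with medians of -0.05 in grade 3 and -0.18 in grade 2. The hyaluronan receptor Cd44 differed by -0.43 in both grades, the integrin chain Itgb2 by -0.26 in grade 3, Icam2 by 0.50 (SE 0.32) and the inhibitor gene Nfkbia by 0.42 (SE 0.34) in grade 3.

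Cell cycle genes were the one list of the 9 with a call. Of 17 proliferation genes on the array 11 were tested, and in grade 3 2 fell with treatment while 0 rose. Cdc20, an activator of the anaphase-promoting complex, fell by 1.51 on the log2 scale (SE 0.32, limma adjusted p = 0.0438), and Tk1, thymidine kinase, fell by 1.41 (SE 0.30, limma adjusted p = 0.0447). These calls were not stable: in limma 0 proliferation genes were called when any of 15 of the 18 tumours was left out. The untreated grade 3 tumour 8584T3 had a mean signal of 6.38 over the 17 genes, within the range of the treated grade 3 tumours (6.12 to 6.76), against 7.56, 7.39 and 7.81 in the other untreated grade 3 tumours. Without it 8 genes were called lower. Its mean over the kinase inhibitors, 8.67, also lay within the treated range of 8.33 to 8.79. Cdkn1a among them did not overlap between treated and untreated tumours in either grade (4.92% of all genes in grade 3, 8.08% in grade 2). In grade 3 it was 10.52 or more in treated and 10.40 or less in untreated tumours, 8584T3 included. The cyclins Ccnb2 and Ccna2 differed by -1.39 and -1.43 without passing. The median over the 11 genes was -1.33 in grade 3 and -0.98 in grade 2, where 0 were called. Of 5 cyclin-dependent kinase inhibitors 4 were tested and 0 were called. Among them the p53 target Cdkn1a differed by 1.53 (SE 0.44, limma adjusted p = 0.151) in grade 3 and 1.24 (SE 0.44, limma adjusted p = 0.51) in grade 2, Cdkn2b by 0.47 and 0.71, Cdkn2c by 0.15 and -0.46, and Cdkn1b by -0.18 and 0.10. The plot of gene lists sets these values beside those of the 6 tested members, whose medians were -0.12 in grade 3 and -0.08 in grade 2.

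**Figure D4:**
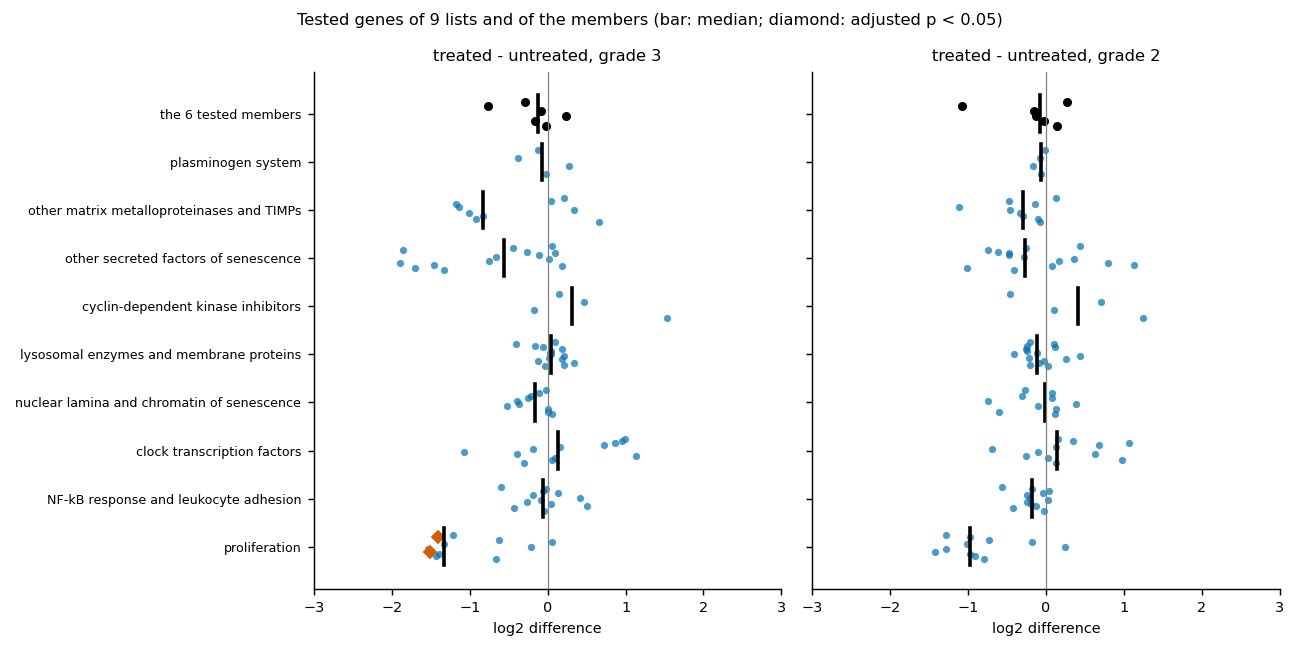
Fitted log2 treatment differences (x axis) of the tested genes of 9 lists and of the 6 tested members (y axis) in grade 3 (left) and grade 2 (right); each point is a gene, bars are medians and diamonds genes with an adjusted p under 0.05. The 2 diamonds are Cdc20 and Tk1 in grade 3, and the median of the members lies at -0.12 in grade 3 and -0.08 in grade 2.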

How the data were processed

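Each tumour gave 100 ng of RNA, which per the labels' protocols was amplified and run on an array of 1 colour. The values the authors deposited are log2 signals of probe sets; the submitters' processing notes name GCRMA 2.20.0 and R 2.11.0. GCRMA includes quantile normalisation of the arrays, so the values cannot show a difference in total RNA; array medians still differed slightly. Of 22690 probe sets, 20380 had 1 symbol, 691 several and 1555 none; 64 were controls. For genes with more than 1, the probe set of highest mean signal was taken. The gene of p53 is not analysed here.

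limma 3.58.1 in R 4.3.3 fitted 4 group means to 18 arrays, with tumours of a mouse correlated at 0.259. Members below the filter were taken from a fit to all 12393 genes. The number of arrays limits precision. Steps were tested on simulated data with known changes. For treatment, 15 of 150 calls were false in grade 3 and 14 of 158 in grade 2. Between the grades, 7 of 151 were false in untreated and 9 of 167 in treated tumours. A treatment change of 0.5 on the log2 scale was recovered in 28.4% of changed genes in grade 3 and 37.3% in grade 2. For a change of 1 these shares were 79.1% and 80.6%. The simulation planted changes of 0.5 in 67 genes, of 1 in 67 and of 2 in 66. It gave more calls than the 34 in grade 3 and 5 in grade 2 of these data, where the adjustment is thus stricter. The shares therefore do not measure how often such changes would be found in these data. The members, lists and alternatives were chosen with earlier results of these data known. Named genes were all members and the 2 genes most correlated with each tested member. Per list, those called and up to 4 with the smallest p over the treatment comparisons were named. All 9 tested metalloproteinases and TIMPs were also named for grade 3. Alternatives covered the animal term, sex, normalisation, filter, probe sets and left-out tumours or mice; they were applied to the proliferation list after seeing the data.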

Additional observations from a re-analysis of the deposited data

Results flagged for a closer look

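Among 44 combinations of a member probe set and a group, 1 tumour stood far from the rest of its group, where chance gives about 1 in 20. Serpinb2 was at 1.60 in the treated grade 2 tumour 8688T10, against 2.03 in the nearest of the other 3, a gap of 0.832 of the range of the 4 tumours. All of these values lay below the array median.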

How the results depend on the processing

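Over 35 alternative settings, 1548 values of a member in a comparison were recomputed. None had an adjusted p under 0.05 in limma: the smallest was 0.109, for Serpinb2 between the untreated grades with no animal term, and 68 had an unadjusted p under 0.05. The number of members called was 0 in every comparison and setting run. The sign changed in 84 values. One went to more than 2 standard errors on the other side of 0: Bhlhe40 with treatment in grade 3 and sex as a covariate, at 0.74 (SE 0.30, adjusted p = 0.366), a fit in which sex is separated from treatment by the 1 treated male tumour. The value thus rests on that tumour, 8639T4, which had the highest Bhlhe40 signal of the 18 tumours (11.55) and a 3′ excess. Why its signal was high was not tested. With the mouse as a fixed block, that is, a replicate block, treatment could not be estimated, as each mouse was either treated or untreated. In that fit the difference between the untreated grades rests on mouse 8565 alone (3 tumours). It was 0.31 for Plaur, 0.25 for Serpinb2 and 0.66 for Glb1 (adjusted p = 0.999), and it changed no call. Between the untreated grades Plaur kept its sign in 35 of 35 settings (0.31 to 0.61) and Serpinb2 in 35 of 35 (0.25 to 0.90). Many of these settings could hardly change these values, so the counts are no measure of stability. Leaving out a treated tumour removes no untreated value, and Plaur and Serpinb2 have 1 probe set each to choose from. For the proliferation list, settings applied after seeing the data gave 0 to 8 genes called lower with treatment in grade 3, against 2; Cdc20 lost its call in 22 of 31 settings and Tk1 in 23 of 32. The median of the list stayed below 0, from -1.86 to -1.02. Low signal limits what can be said of Plau, Serpinb2 and Mmp13.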
